A study of Bos grunniens and Bos grunniens x Bos taurus with 12 samples.

Results

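Platelet-derived growth factor (PDGF) signaling was described at the level of translation in the testes of yaks of 3 ages and of cattle–yaks through 7 genes, 3 for receptors and 4 for ligands. The members were the genes *PDGFRA*, *PDGFRB*, *PDGFRL*, *PDGFA*, *PDGFB*, *PDGFC* and *PDGFD*, chosen by name from the 20965 genes of each table. Of these 7 genes, 6 were found by their symbol. *PDGFA* was found by its description, platelet-derived growth factor subunit A isoform X1, since that row (ENSBGRG00000025342) carries no symbol. Ribo-seq sequences the fragments of mRNA that translating ribosomes protect from nuclease, called ribosome footprints (RFs). The groups were yaks of 6 months, which the labels place in the juvenile stage, yaks of 18 months, placed at puberty, and yaks and cattle–yaks of 4 years, both placed at sexual maturity. Each group held 3 libraries of whole testis. Cattle–yaks are hybrids of cattle and yak whose males are sterile, and here the sire was a Jersey bull and the dam a Gannan yak. The labels give castration as the source of testes in every group, whereas the methods give castration for the hybrids and euthanasia for the yaks of 4 years. The RFs of hybrids, which carry a cattle and a yak copy of each gene outside the sex chromosomes, were aligned to the yak genome alone.

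PDGFs are secreted dimers that bind receptor tyrosine kinases on mesenchymal cells. The PDGF-A and PDGF-C chains bind mainly receptor alpha, encoded by *PDGFRA*, PDGF-B binds both receptors, and PDGF-D binds mainly receptor beta, encoded by *PDGFRB*. *PDGFRL* encodes a secreted protein that resembles the outer part of a receptor and has no kinase domain. In the testis of other mammals, Sertoli cells and other tubular cells produce PDGF ligands, while the receptors lie on cells outside the seminiferous epithelium, such as Leydig cells and their progenitors, peritubular myoid cells and pericytes. Loss of PDGF-A in mice leads to a lack of adult Leydig cells.

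Libraries held 16304058 to 52616039 counts on genes, and those of cattle–yak (38437889 to 52616039) were deeper than those of yak at 4 years (16304058 to 17862516). The libraries of the 2 oldest groups differed in germ cell markers. The summed FPKM of 6 elongating spermatid markers was 11455 to 15653 in yak of 4 years and 1.36 to 31.6 in cattle–yak. In yak of 6 months it was 1.65 to 2.30. Replicate 2 of yak at 18 months stood apart from its group, with a sum of 9414 for these markers against 2.56 in replicate 1 and 19.02 in replicate 3. Every comparison with yak of 18 months is therefore also given without that library. Markers of the tissue were present in all groups, with the summed Leydig cell markers, led by *INSL3*, at 10465 to 37654 FPKM.

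The translation level of every PDGF gene was lower in yak of 4 years than in yak of 6 months, and the receptors differed from each other in how far. The levels are given as FPKM, in which the counts of a gene are divided by its length and by the total of its library. Between groups, fold changes come from edgeR's quasi-likelihood test on the deposited counts with TMM scaling, and a differentially translated gene (DTG) is one whose Benjamini-Hochberg adjusted p is below 0.05 and whose level differs by at least 1 on the log2 scale. Each error of a log2 fold change is its approximate standard error.

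*PDGFRA* (ENSBGRG00000024258) was the receptor with the highest translation level in each group. In yak of 6 months its FPKM was 149 in replicate 1, 129 in replicate 2 and 104 in replicate 3, with a mean of 127 ± 22.2 (SD, n = 3). In yak of 18 months, replicates 1 to 3 gave 119, 82.0 and 109 FPKM, with a mean of 103 ± 19.3 (SD, n = 3). The yaks of 4 years gave 31.4, 36.2 and 61.2 FPKM, with a mean of 42.9 ± 16.04 (SD, n = 3). Every yak of 4 years lay below every younger yak, and the 2 younger groups overlapped. In cattle–yak the 3 values were 74.7, 120 and 75.7 FPKM, with a mean of 90.03 ± 25.8 (SD, n = 3), which overlapped both younger yak groups and lay above all yaks of 4 years. The mean FPKM of *PDGFRA* stood above that of 94.8% of genes in yak of 6 months, 82.3% in yak of 4 years and 90.3% in cattle–yak.

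*PDGFRB* (ENSBGRG00000020782) was closest to *PDGFRA* in the youngest yaks and further below it in the other groups. Replicates 1 to 3 gave 104, 84.7 and 92.0 FPKM at 6 months, with a mean of 93.6 ± 9.83 (SD, n = 3). At 18 months they gave 43.3, 15.8 and 24.4 FPKM, with a mean of 27.8 ± 14.0 (SD, n = 3), so that replicate 2 was the lowest and none reached the youngest group. At 4 years the 3 yaks were within a narrow range, with 6.57, 6.45 and 6.47 FPKM and a mean of 6.50 ± 0.0643 (SD, n = 3). Cattle–yak had 9.88, 20.1 and 8.57 FPKM, with a mean of 12.9 ± 6.32 (SD, n = 3). These 3 values lay above those of yak at 4 years and below those at 6 months, and they overlapped those at 18 months because of replicate 2.

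*PDGFRL* (ENSBGRG00000010417) had another order, with its lowest values in the hybrid. It had 94.9, 59.8 and 47.1 FPKM in the 3 yaks of 6 months, with a mean of 67.3 ± 24.8 (SD, n = 3). The 3 yaks of 18 months had 53.2, 12.7 and 7.82 FPKM, with a mean of 24.6 ± 24.9 (SD, n = 3), and replicate 1 alone lay within the range of the youngest group. At 4 years the values were 8.11, 5.42 and 6.15 FPKM, with a mean of 6.56 ± 1.39 (SD, n = 3), and they overlapped those at 18 months. All 3 cattle–yaks lay below all 9 yaks, with 2.37, 4.79 and 2.83 FPKM and a mean of 3.33 ± 1.29 (SD, n = 3), which rest on 144, 214 and 126 counts.

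*PDGFA* was the ligand with the highest translation level at 6 months. Its FPKM in replicates 1 to 3 was 156, 105 and 143 in yak of 6 months, with a mean of 135 ± 26.6 (SD, n = 3). At 18 months it was 88.3, 35.8 and 57.7, with a mean of 60.6 ± 26.4 (SD, n = 3). At 4 years it was 11.2, 15.4 and 20.6, with a mean of 15.7 ± 4.67 (SD, n = 3). No 2 of these age groups overlapped. Cattle–yak had 20.8, 31.0 and 30.6 FPKM, with a mean of 27.5 ± 5.81 (SD, n = 3), and lay between yak of 4 years and yak of 18 months without overlap with either.

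*PDGFB* (ENSBGRG00000003093) was the ligand with the lowest level in each group, and its values rest on few counts. Its FPKM was 3.40, 3.98 and 4.21 at 6 months (mean 3.86 ± 0.417, SD, n = 3) and 2.13, 2.76 and 4.75 at 18 months (mean 3.21 ± 1.37, SD, n = 3). Yak of 4 years had 1.69, 2.97 and 2.05 FPKM (mean 2.24 ± 0.660, SD, n = 3) from 26, 46 and 29 counts. Cattle–yak had 1.76, 2.96 and 1.92 FPKM (mean 2.21 ± 0.652, SD, n = 3) from 80, 99 and 64 counts. The last 2 groups covered nearly the same range, and both lay below yak of 6 months.

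*PDGFC* (ENSBGRG00000004629) and *PDGFD* (ENSBGRG00000020375) encode the ligands that are secreted in a latent form and need proteolytic cleavage to bind. *PDGFC* had 41.7, 31.4 and 33.8 FPKM at 6 months (mean 35.6 ± 5.36, SD, n = 3), and 32.7, 11.6 and 9.83 FPKM at 18 months (mean 18.0 ± 12.7, SD, n = 3). At 4 years it had 7.63, 8.15 and 7.72 FPKM (mean 7.83 ± 0.278, SD, n = 3), below all younger yaks, and cattle–yak had 10.6, 15.2 and 13.0 FPKM (mean 13.0 ± 2.30, SD, n = 3), above all yaks of 4 years. *PDGFD* had 38.8, 37.6 and 30.8 FPKM at 6 months (mean 35.7 ± 4.29, SD, n = 3), 28.8, 20.1 and 31.1 FPKM at 18 months (mean 26.7 ± 5.82, SD, n = 3) and 13.7, 16.6 and 15.0 FPKM at 4 years (mean 15.1 ± 1.43, SD, n = 3). Cattle–yak had 17.5, 31.7 and 18.6 FPKM of *PDGFD* (mean 22.6 ± 7.93, SD, n = 3). These values lay above all yaks of 4 years and overlapped both younger groups. By group mean, *PDGFRA*, *PDGFRB*, *PDGFA*, *PDGFC* and *PDGFD* shared the order yak of 6 months, yak of 18 months, cattle–yak and yak of 4 years from high to low, and in *PDGFRL* and *PDGFB* the last 2 were exchanged.

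**Figure D1:**
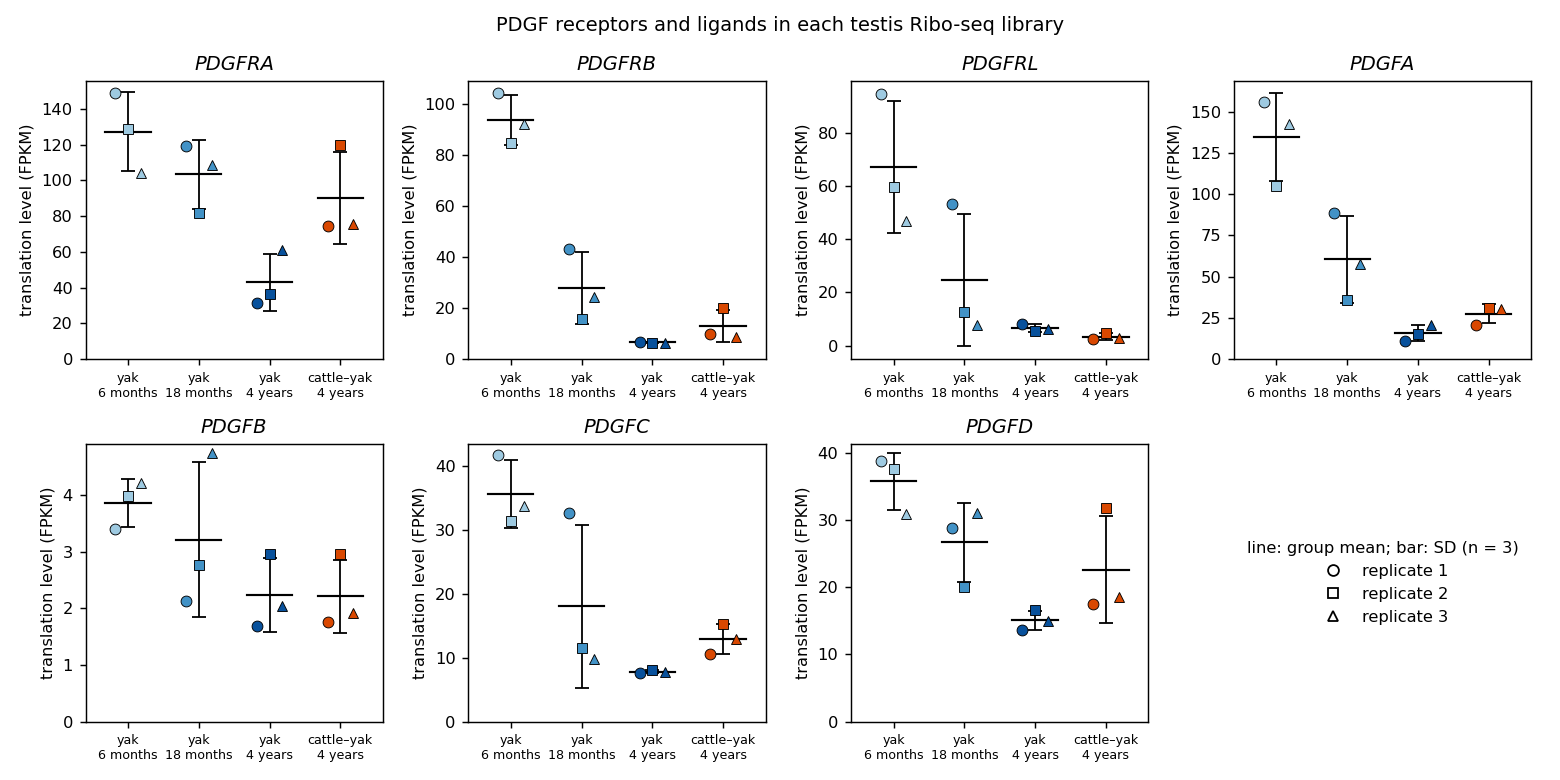
Translation level (FPKM, linear axis) of each PDGF gene in the 12 libraries, grouped by yak of 6 months, 18 months and 4 years and cattle–yak of 4 years; symbols are replicates, lines are group means and bars are the SD of 3 libraries. Yak of 4 years lay below yak of 6 months for all 7 genes, and cattle–yak replicate 2 was the highest of its group for all 7.

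Over the age range in yak, all 7 PDGF genes fell. These levels are relative to all RFs of a library, and the libraries also differed in germ cell markers. The elongating spermatid sum was 1.65 to 2.30 FPKM at 6 months and 11455 to 15653 at 4 years. The part of this difference in the PDGF levels was not tested. In yak of 4 years over yak of 6 months, 24.7% of the 16133 genes tested were DTGs with lower and 31% DTGs with higher translation. All 7 PDGF genes were among the lower, with a median log2 fold change of -2.77 against 0.08 for all genes tested. *PDGFRB* fell by 4.45 ± 0.197 on the log2 scale (adjusted p = 1.893e-07 by edgeR's quasi-likelihood test), and *PDGFRL* fell by 3.95 ± 0.349 (adjusted p = 1.098e-05). *PDGFRA* fell by 2.16 ± 0.289 (adjusted p = 0.000149). Among ligands, *PDGFA* fell by 3.64 ± 0.273 (adjusted p = 3.939e-06) and *PDGFC* by 2.77 ± 0.201 (adjusted p = 3.168e-06). *PDGFD* fell by 1.84 ± 0.179 (adjusted p = 2.052e-05) and *PDGFB* by 1.35 ± 0.328 (adjusted p = 0.00494).

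The size of these changes depends on the scaling, since TMM centers the genes and FPKM does not. With library size alone, the median of all genes tested in yak of 4 years over 6 months moved by 0.57 on the log2 scale, from 0.08 to 0.64. *PDGFRB* then fell by 3.87 and *PDGFRA* by 1.57, and *PDGFB* fell by 0.79 and was no DTG, which leaves 6 of 7. With library size alone, 27.4% of all DTGs of this comparison were lower, against 44.3% with TMM. By mean FPKM, yak of 6 months had 14.4 times the *PDGFRB*, 10.3 times the *PDGFRL*, 8.56 times the *PDGFA* and 2.97 times the *PDGFRA* of yak of 4 years.

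Between neighboring ages no PDGF gene was a DTG by edgeR with all 6 libraries, and neither were nearly all other genes. Other settings called more PDGF genes and also many more of all genes, so each count is given with its own share. In yak of 18 months over 6 months, 0.0471% of 14874 genes were lower DTGs and 0.0202% higher. There edgeR's quasi-likelihood test gave 0 of 7 PDGF genes, with 3 of 7 at an unadjusted p below 0.05. DESeq2 called 2, both lower, beside 4.11% of 19379 genes lower and 5.59% higher. Limma on log2(FPKM + 1) called 0 of 7, and limma on log2(FPKM + 0.1) called 1, beside 0.861% of all genes lower. The log2 fold change was -2.06 ± 0.449 for *PDGFRB* (adjusted p = 0.0690 by edgeR), -1.47 ± 0.424 for *PDGFA* (adjusted p = 0.106) and -0.65 ± 0.305 for *PDGFRA* (adjusted p = 0.226). Without replicate 1 of yak at 18 months, which had the highest *PDGFRB*, *PDGFRL*, *PDGFA* and *PDGFC* of its group, those 4 genes were lower DTGs, and so were 8.08% of 15454 genes, with 8.7% higher. Without replicate 2, the library with spermatid markers, the count was 0.

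In yak of 4 years over 18 months, 0.0371% of 16175 genes were lower DTGs and 0% higher by edgeR. All 7 PDGF genes had a log2 fold change below 0, from -0.70 ± 0.414 for *PDGFB* to -2.37 ± 0.474 for *PDGFRB* (adjusted p = 0.0691), and 0 of 7 were DTGs, with 6 of 7 at an unadjusted p below 0.05. DESeq2 called 4 of them, beside 10.2% of 19576 genes lower and 6.44% higher, and limma called 0 with either pseudocount. Without replicate 2 of yak at 18 months, 6 of 7 were DTGs, all but *PDGFB*, with -2.67 for *PDGFRB* (adjusted p = 0.000417 by edgeR) and -1.65 for *PDGFRA* (adjusted p = 0.00359). Leaving out that library raised the calls over all genes as well, to 18.5% of 16377 genes lower and 26.1% higher.

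**Figure D2:**
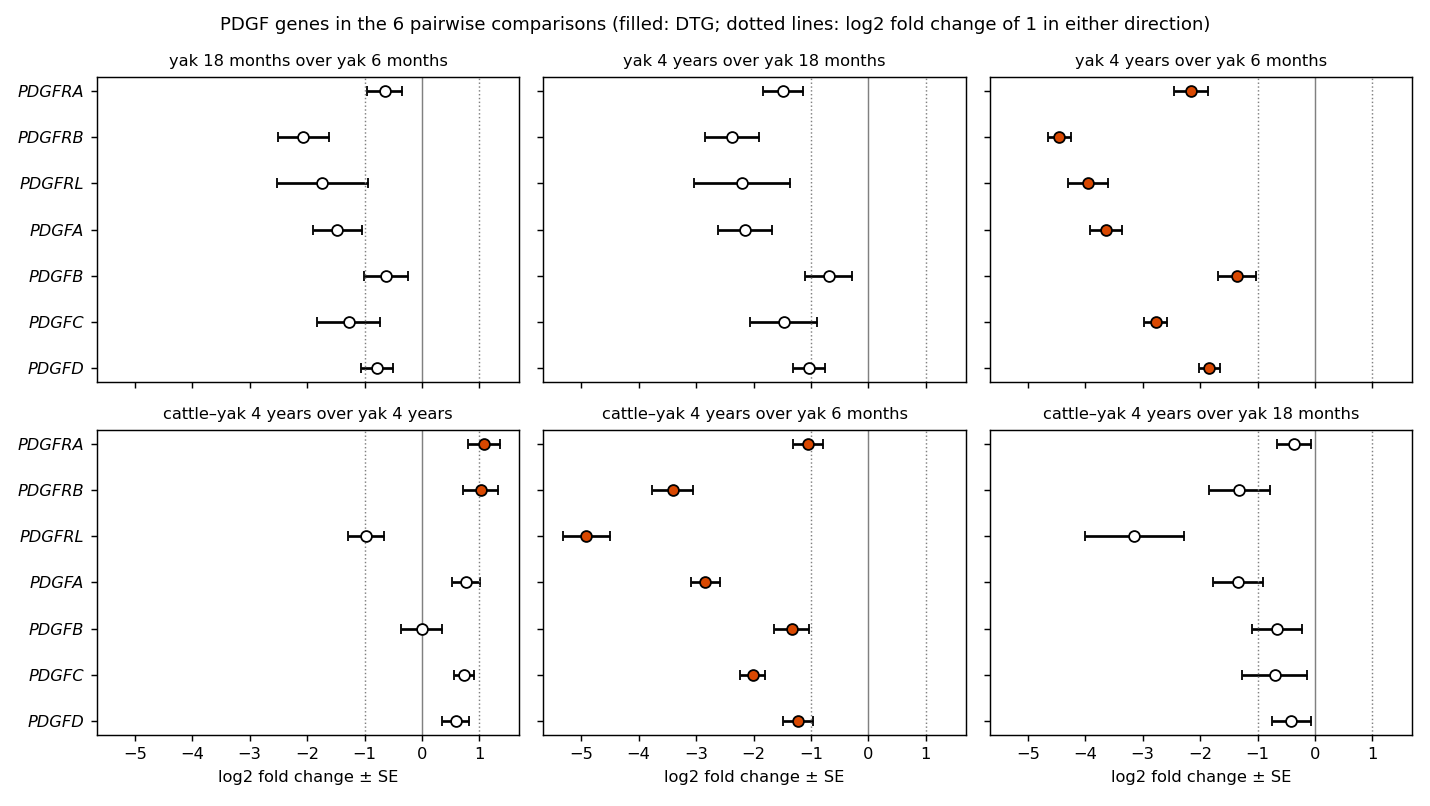
Log2 fold change with its standard error (linear axis in log2 units) of each PDGF gene in the 6 comparisons of 2 groups from edgeR; filled points are DTGs and dotted lines mark a log2 fold change of 1 in either direction. All 7 genes are filled on the left of 0 in both comparisons with yak of 6 months that end at 4 years, and only PDGFRA and PDGFRB are filled on the right of 0 in cattle–yak over yak of 4 years.

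Cattle–yak and yak of the same labelled age were compared to ask how translation in the sterile hybrid differs. Both receptor kinases were higher in cattle–yak, by 2.12-fold for *PDGFRA* and 2.03-fold for *PDGFRB*. Changes of this size were common, since 43.3% and 45.7% of all genes tested changed by more in either direction. In this comparison 17.1% of 16498 genes were higher and 27% lower DTGs, and 2 of 7 PDGF genes were higher DTGs. *PDGFRA* had a log2 fold change of 1.09 ± 0.278 (edgeR, adjusted p = 0.0085) and *PDGFRB* of 1.02 ± 0.306 (adjusted p = 0.0177). Both stood just inside the fold threshold, as did *PDGFRL* just outside it on the other side, with -0.98 ± 0.317 (adjusted p = 0.0248). *PDGFC*, with 0.73 ± 0.176 (adjusted p = 0.00629), and *PDGFA*, with 0.77 ± 0.242 (adjusted p = 0.0215), met the adjusted p and not the fold. *PDGFD* had 0.58 ± 0.236 (adjusted p = 0.0569). *PDGFB* had -0.01 ± 0.363 (adjusted p = 0.986), and the 26 to 46 counts per yak library limit what could be detected. The median of the 7 log2 fold changes was 0.73, against -0.00 for all genes tested.

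The call of *PDGFRA* in cattle–yak over yak of 4 years was kept under all 9 other settings that used all libraries, with log2 fold changes of 1.05 to 1.15. It was lost without replicate 2 of cattle–yak (0.84) and without replicate 1 of yak at 4 years (0.997). *PDGFRB* was a DTG under 3 of those 9 settings, and it had 0.55 on the log2 scale when cattle–yak replicate 2 was left out (adjusted p = 0.0156 by edgeR). *PDGFRL* was a lower DTG under 4 of the 9, DESeq2 among them (-1.01, adjusted p = 0.00958), and without cattle–yak replicate 2 it was -1.32 (adjusted p = 0.00520). Cattle–yak replicate 2 had the highest value of its group for each of the 7 genes and also the highest summed stromal marker level.

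Compared with younger yaks, cattle–yak differed in age as well as in cross, and the 2 cannot be told apart. In cattle–yak over yak of 6 months, 19.7% of 15571 genes were lower and 18.1% higher DTGs, and all 7 PDGF genes were lower DTGs. *PDGFRL* fell by 4.91 ± 0.416 on the log2 scale (edgeR, adjusted p = 4.633e-05), *PDGFRB* by 3.41 ± 0.353 (adjusted p = 0.000117) and *PDGFA* by 2.84 ± 0.248 (adjusted p = 5.31e-05). *PDGFRA* fell least, by 1.05 ± 0.255 (adjusted p = 0.00794), and its FPKM overlapped between these groups. With library size alone, where the median of all genes moved by 0.54, *PDGFRA* had -0.50, *PDGFD* -0.68 and *PDGFB* -0.81, and 4 of 7 were DTGs. The share of lower genes among all DTGs of this comparison was 52.1% with TMM and 27.8% with library size alone.

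In cattle–yak over yak of 18 months, 3.45% of 15702 genes were higher and 2.34% lower DTGs, and 0 of 7 PDGF genes were DTGs by edgeR, with 3 of 7 at an unadjusted p below 0.05. DESeq2 called 2 (*PDGFRL* and *PDGFA*), beside 7.24% of 19565 genes lower, and limma 0 with either pseudocount. *PDGFRL* had a log2 fold change of -3.15 ± 0.863 (adjusted p = 0.0744 by edgeR), *PDGFA* -1.33 ± 0.436 (adjusted p = 0.107), *PDGFRB* -1.31 ± 0.538 (adjusted p = 0.160) and *PDGFRA* -0.36 ± 0.303 (adjusted p = 0.437). Without replicate 2 of yak at 18 months, *PDGFRL* (-3.52), *PDGFA* (-1.66) and *PDGFRB* (-1.65) were lower DTGs, beside 8.04% of 16139 genes lower and 7.22% higher. The comparisons above share groups, so their values are not independent of each other.

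Within a library, the balance of the 2 receptor kinases differed between ages. The FPKM of *PDGFRA* over that of *PDGFRB* was 1.14 to 1.52 in yak of 6 months, with a mean of 1.36 ± 0.201 (SD, n = 3). It was 2.76 to 5.19 at 18 months (mean 4.13 ± 1.25, SD, n = 3), 4.77 to 9.46 at 4 years (mean 6.61 ± 2.50, SD, n = 3) and 5.95 to 8.83 in cattle–yak (mean 7.45 ± 1.44, SD, n = 3). All 3 yaks of 6 months lay below all other libraries, and cattle–yak lay within the range of yak at 4 years. These ratios were not tested.

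The receptors were set beside markers of the stromal cells that could carry them: 7 of interstitial fibroblasts and progenitors, led by *DCN* and *COL1A2*, 6 of peritubular myoid and smooth muscle cells, led by *ACTA2* and *TAGLN*, and 6 of pericytes, led by *RGS5* and *MCAM*. Their summed FPKM was 3113 to 3511 in yak of 6 months, 978 to 2123 at 18 months, 406 to 420 at 4 years and 1436 to 2190 in cattle–yak. Thus cattle–yak had 4.17 times the mean stromal sum of yak at 4 years, beside 2.10 times the mean FPKM of *PDGFRA* and 1.98 times that of *PDGFRB*. The myoid markers were higher DTGs in 6 of 6 cases in this comparison (median log2 fold change 2.16), the interstitial markers in 6 of 7 (median 1.97) and the pericyte markers in 1 of 6 (median 0.46), beside 17.1% of all genes. In bulk testis, fewer cells of a type and fewer RFs per cell cannot be told apart, and the part of these cells in the receptor levels was not tested.

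Relative to the summed stromal markers, both receptors were lower in cattle–yak than in yak of 4 years. *PDGFRA* over the stromal sum was 0.0747 to 0.147 in yak of 4 years and 0.0479 to 0.0547 in cattle–yak. For *PDGFRB* the ratio was 0.0155 to 0.0159 in yak of 4 years and 0.00597 to 0.00919 in cattle–yak. With the interstitial or the myoid markers alone as the denominator, both receptors were again lower in all 3 cattle–yaks than in all yaks of 4 years. With the pericyte or the Leydig cell markers the groups overlapped for both receptors. *PDGFRB* over pericyte markers was 0.106 to 0.130 in yak of 4 years and 0.0767 to 0.156 in cattle–yak, and *PDGFRA* over Leydig cell markers was 0.00186 to 0.00585 and 0.00405 to 0.00590. The Leydig sum rested mostly on *INSL3*, with means of 12590 FPKM in yak of 4 years and 17960 in cattle–yak, beside 12760 and 18821. Between these groups *INSL3* was no DTG (log2 fold change 0.52), and *STAR* was a higher one (2.50). Of 5 tested Leydig cell markers, 3 were higher DTGs (median 1.65), beside 17.1% of all genes. The Leydig ratios therefore depend largely on 1 gene. The pericyte sum rested mostly on *RGS5*.

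Over age in yak the direction of such a ratio turned with the markers chosen. Over the whole stromal sum, *PDGFRA* was at 0.0297 to 0.0478 at 6 months, below all yaks of 4 years, and *PDGFRB* at 0.0262 to 0.0334, above all of them. Over the interstitial markers alone, whose sum dropped most with age among the somatic marker lists, both receptors were higher at 4 years. There *PDGFRB* was 0.0314 to 0.0373 at 6 months and 0.0468 to 0.0518 at 4 years. Over the myoid markers both were lower at 4 years, with *PDGFRA* at 0.404 to 0.852 and then 0.136 to 0.268. That sum was led by *ACTA2* and *TAGLN*, which were no DTGs in yak of 4 years over 6 months (log2 fold changes 0.73 and -0.57). Of the 6 myoid markers 3 were lower DTGs there, beside 24.7% of all genes, from *CNN1* (-1.31) to *DES* (-3.15). *DES* fell by more than *PDGFRA* (-2.16), so the direction for *PDGFRA* depends on the marker. Over Leydig cell markers *PDGFRB* was lower at 4 years without overlap, and *PDGFRA* overlapped, with means of 0.00607 ± 0.00220 (SD, n = 3) at 6 months and 0.00367 ± 0.00202 (SD, n = 3) at 4 years. Over pericyte markers *PDGFRB* was lower at 4 years without overlap and *PDGFRA* overlapped. The Leydig and pericyte sums rested mostly on *INSL3* and *RGS5* at both ages. None of these ratios was tested, and the denominators of 1 cell type were chosen after the data were seen.

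**Figure D3:**
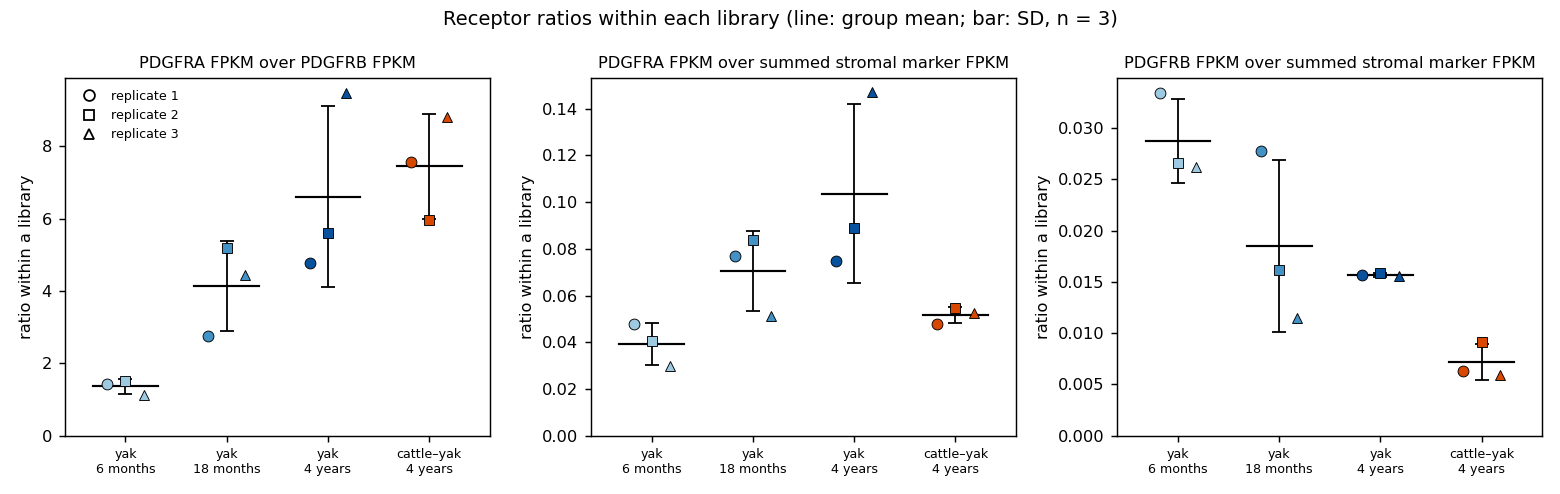
Ratios of FPKM within each of the 12 libraries (linear axes from 0): PDGFRA over PDGFRB, and each of them over the summed FPKM of interstitial, myoid and pericyte markers; symbols are replicates, lines are group means and bars are the SD of 3 libraries. The first ratio was 1.14 to 1.52 in yak of 6 months and 4.77 to 9.46 in yak of 4 years, and both ratios to stromal markers were lower in the 3 cattle–yaks than in the 3 yaks of 4 years.

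Other somatic markers differed in how far they followed these levels. The summed Leydig cell markers, led by *INSL3* and *STAR*, were 17680 to 25777 FPKM at 6 months, 20716 to 37654 at 18 months, 10465 to 16819 at 4 years and 17718 to 20294 in cattle–yak. The mean of this sum was highest at 18 months (29529), unlike that of any PDGF gene, but this came from *INSL3* alone. *INSL3* had a mean of 28870 FPKM at 18 months and 19580 at 6 months, whereas *STAR* had 475 and 1890. Of 5 tested Leydig cell markers, 1 had a log2 fold change above 0 in yak of 18 months over 6 months. The others were highest at 6 months by mean FPKM, like the PDGF genes. In yak of 4 years over 6 months, where 24.7% of all genes were lower DTGs, 5 of 5 tested Leydig cell markers and 7 of 7 interstitial markers were lower DTGs (medians -2.65 and -4.48). Of 6 Sertoli cell markers, 4 were lower DTGs and 1 higher. Of the 2 with the highest level, *INHA* was lower (-4.11) and *CLDN11* was the higher one (5.90). The endothelial markers, led by *CLDN5* and *CDH5*, summed to 132 to 261 FPKM at 6 months, 83.7 to 239 at 18 months, 19.4 to 24.7 at 4 years and 23.3 to 33.2 in cattle–yak. *PDGFB*, a ligand that endothelial cells release to recruit pericytes, was 0.0130 to 0.0318 of that sum at 6 months and 0.0835 to 0.120 of it at 4 years. *CLDN5* alone had a mean of 156 FPKM at 6 months, beside 180 for the sum, and 8.56 FPKM at 4 years, beside 21.4. The difference in this ratio between ages therefore depends largely on 1 gene. The summed macrophage markers ran the other way, but this rested mostly on *AIF1*. They summed to 48.2 to 64.7 FPKM at 6 months, 36.05 to 146 at 18 months, 223 to 254 at 4 years and 42.4 to 48.9 in cattle–yak. *AIF1* alone had a mean of 32.1 FPKM at 6 months and 194 at 4 years, beside mean sums of 56.9 and 235. In cattle–yak it had 13.1, beside 46.7. *CD163* was no DTG in yak of 4 years over 6 months (0.16) or in cattle–yak over yak of 4 years (-0.11). Of 4 macrophage markers tested, 2 were higher DTGs in yak of 4 years over 6 months (median 0.68), and 3 had a log2 fold change above 0. In cattle–yak over yak of 4 years 2 were lower DTGs (median -0.64), with 0 in the opposite direction in both comparisons. The part of these cell types in the PDGF levels was not tested.

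The 4 ligands summed to 240, 178 and 212 FPKM in the 3 yaks of 6 months. The sums were 152, 70.2 and 103 FPKM at 18 months, 34.3, 43.0 and 45.3 FPKM at 4 years and 50.7, 80.9 and 64.1 FPKM in cattle–yak. No 2 yak groups overlapped, and cattle–yak lay above yak of 4 years and overlapped yak of 18 months. *PDGFA* made up 59.0 to 67.5% of the ligand sum at 6 months, 51.0 to 58.1% at 18 months, 32.8 to 45.4% at 4 years and 38.3 to 47.8% in cattle–yak. The share of *PDGFD* ran the other way, with 14.6 to 21.1% at 6 months, 33.0 to 39.99% at 4 years and 29.0 to 39.2% in cattle–yak. The share of *PDGFC* was 15.98 to 17.7% at 6 months and 18.8 to 21.0% in cattle–yak, but it was 9.52 to 21.5% at 18 months and 17.05 to 22.3% at 4 years, which overlapped both. The share of *PDGFB* stayed at or below 6.90% in every library. By group mean, *PDGFA* and *PDGFD* were nearly equal in yak of 4 years (15.7 and 15.1 FPKM), whereas *PDGFA* was the highest ligand in each of the 6 younger libraries.

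**Figure D4:**
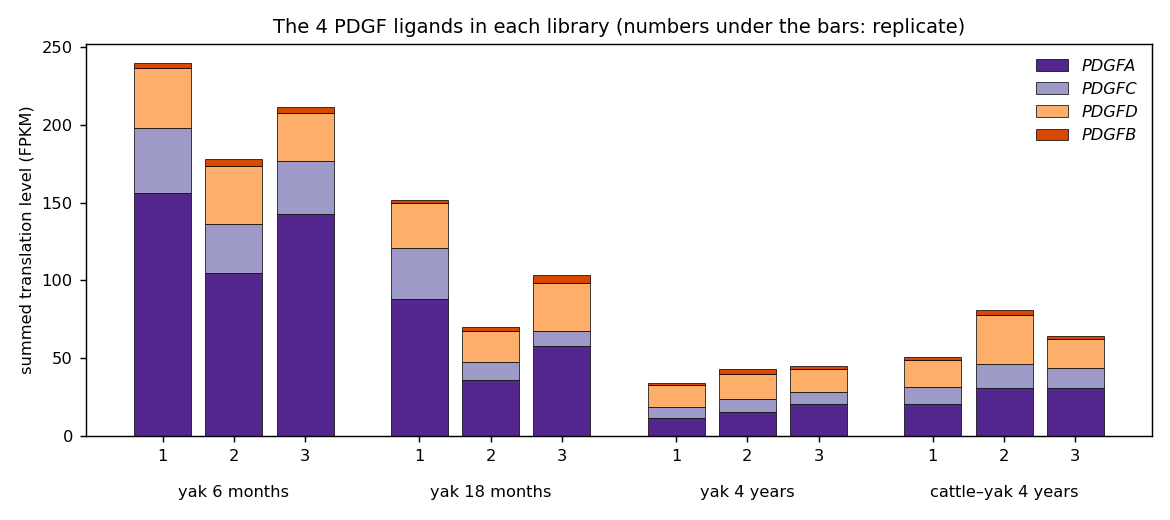
Summed translation level (FPKM, linear axis from 0) of PDGFA, PDGFC, PDGFD and PDGFB in each of the 12 libraries, as stacked bars by group and replicate. The sums run from 178 to 240 in yak of 6 months to 34.3 to 45.3 in yak of 4 years, with 50.7 to 80.9 in cattle–yak, and the bar of PDGFA is the part that differs most.

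Genes that act before and after the receptors were taken from lists of known PDGF biology. Of the proteins that process or escort ligands, *PLAT*, the tissue plasminogen activator that cleaves latent PDGF-C, was at 15.3 to 36.3 FPKM in yak of 4 years and 121 to 151 FPKM in the hybrid, which gave a log2 fold change of 2.39 ± 0.284 (edgeR, adjusted p = 0.000139). *PLAU*, the urokinase that cleaves latent PDGF-D, was a DTG in the opposite direction, with 2.53 to 2.86 FPKM in yak of 4 years, 0.29 to 1.48 in cattle–yak and a log2 fold change of -1.67 ± 0.524 (adjusted p = 0.0212). Of the 4 genes of this list that were tested, 1 was higher and 1 lower, beside 17.1% and 27% of all genes. From yak of 6 months to 4 years, 3 of 4 were lower DTGs, beside 24.7% of all genes, from *FURIN*, a protease that cleaves the PDGF-A and PDGF-B precursors (-1.39), to *PLAT* (-4.29).

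Among 19 adaptors and effectors of the receptors, 8 were higher DTGs in cattle–yak over yak of 4 years and 0 lower, with a median log2 fold change of 0.85. Among them were the kinases *SRC* (2.01) and *FYN* (1.51), the adaptors *SHC1* (1.37) and *CRK* (1.47), the Ras activator *SOS1* (1.28), and the transcription factors *STAT3* (1.27) and *STAT5A* (1.51). *SRC* was at 14.3 to 21.4 FPKM in yak of 4 years and 61.6 to 79.8 FPKM in cattle–yak. Between yak of 4 years and 6 months, 10 of 19 were lower DTGs and 0 higher (median -1.17), among them *PLCG1*, a phospholipase that docks on the receptors (-1.17). These proteins serve many receptors besides those of PDGF, and 17.1% of all genes tested were higher DTGs in the first comparison and 24.7% lower in the second.

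Of 7 genes that dampen the signal, *CBLB*, a ubiquitin ligase (1.15), and *PTPN1*, a phosphatase (1.17), were higher DTGs in cattle–yak over yak of 4 years and none was lower. These 2 of 7 stand beside 17.1% of all genes. *PTPRJ*, a receptor phosphatase (-3.17), and *SLA*, an adaptor (-1.82), were the 2 lower DTGs of these 7 in yak of 4 years over 6 months, where 24.7% of all genes were lower DTGs, so this share is close to that of all genes. Immediate early genes, which growth factors and also handling of tissue induce within minutes, were higher DTGs in cattle–yak in 5 of 7 cases, beside 17.1% of all genes, and lower in 0, with a median of 1.99. They were *FOS*, with a log2 fold change of 3.72 ± 0.904 (edgeR, adjusted p = 0.00665), *EGR1* (3.08), *IER2* (1.99), *JUN* (1.92) and *MYC* (1.81). *FOS* varied widely within cattle–yak, from 9.23 to 65.6 FPKM, against 2.17 to 3.25 FPKM in yak of 4 years. The methods name different ways of obtaining testes for these 2 groups, which cannot be told apart from the cross. Over age in yak 4 of 6 tested were lower DTGs, beside 24.7% of all genes, from *IER2* (-1.74) to *MYC* (-3.85).

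**Figure D5:**
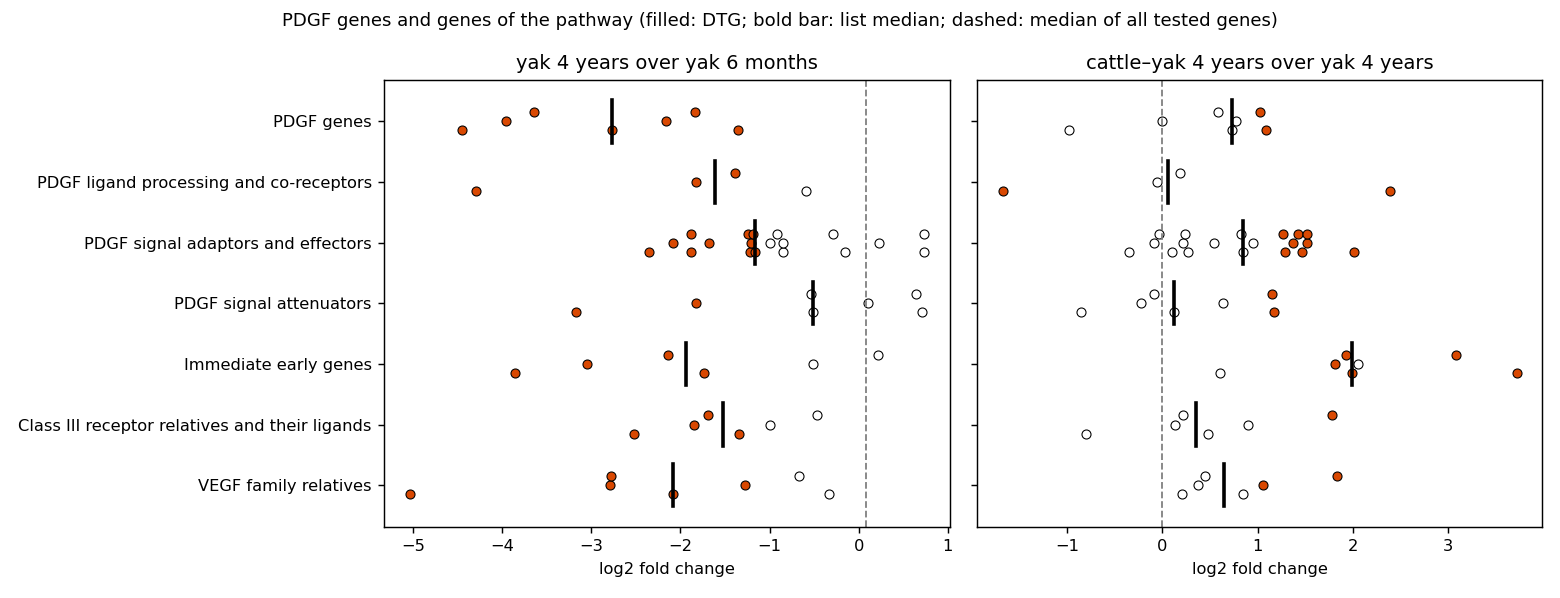
Log2 fold change (linear axis in log2 units) of each tested gene in the 7 PDGF genes and 6 lists of related genes, for yak of 4 years over 6 months and cattle–yak over yak of 4 years; filled points are DTGs, bold bars are list medians and dashed lines the median of all tested genes. The PDGF genes have a median of -2.77 in the first comparison and 0.73 in the second, and immediate early genes have the highest median, 1.99, in the second.

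The receptors of PDGF belong to the class III receptor tyrosine kinases with *KIT*, *CSF1R* and *FLT3*. In the RefSeq annotation of the assembly Bosgru_T2T1.0, which is not the one the RFs were aligned to, *KIT* and *GSX2* are the nearest protein-coding genes on either side of *PDGFRA*, and *CSF1R* and *CDX1* those of *PDGFRB*. In cattle–yak over yak of 4 years *KIT* had a log2 fold change of 0.22 ± 0.134 (edgeR, adjusted p = 0.183) and *CSF1R* of 0.13 ± 0.193 (adjusted p = 0.582), beside 1.09 and 1.02 for the PDGF receptors. *KIT* was at 39.4 to 47.3 FPKM in yak of 4 years and 43.5 to 56.5 FPKM in cattle–yak. Of this list only *KITLG*, the ligand of *KIT*, was a DTG, with 1.78 ± 0.235 (adjusted p = 0.000253). This 1 of 6 tested is close to the 17.1% of all genes that were higher. Over age, 4 of 6 were lower DTGs, beside 24.7% of all genes, from *FLT3LG* (-1.35) to *CSF1* (-2.52). Of the VEGF family, whose ligands share the fold of PDGFs, *VEGFA* (1.05) and *FLT4* (1.83) were the 2 higher DTGs among 6 tested in cattle–yak, beside the same 17.1%. Over age 5 of 7 were lower, beside the same 24.7%, from *VEGFA* (-1.27) to *VEGFD* (-5.03).

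Over the 12 libraries, the genes most like each member in level were sought among 12081 genes with a symbol by Pearson's r of log2 CPM. These values are a description: the libraries form 4 groups, and a gene that follows the groups gives a high r. Most like *PDGFRA* were *ZNF786* (r = 0.981), *HHIP* (0.981) and *UAP1L1* (0.974), and most like *PDGFRB* were *ENG* (0.995), *HSD3B7* (0.994) and *MMP14* (0.993). For *PDGFRL* they were *CD82* (0.988), *LAMP5* (0.987) and *ABCB10* (0.987), and for *PDGFA* *FKBP9* (0.991), *LAMA2* (0.989) and *UGGT1* (0.988). For *PDGFB* they were *BRINP3* (0.963), *LRRC8A* (0.942) and *HLA-DOA* (0.939). For *PDGFC* they were *GRN* (0.990), *COL6A1* (0.987) and *ZDHHC9* (0.987), and for *PDGFD* *GLIS2* (0.984), *ADD2* (0.979) and *IGSF3* (0.975). No gene was named for 2 members. Between members, r was 0.978 for *PDGFRB* and *PDGFA* and 0.701 for *PDGFB* and *PDGFC*. *LAMP5* shared the order of *PDGFRL*, with group means of 29.1, 4.54, 0.39 and 0.107 FPKM in yak of 6 months, 18 months and 4 years and in cattle–yak. *HHIP*, which encodes an inhibitor of hedgehog ligands, had 6.01, 3.58, 0.73 and 2.66 FPKM in the same order.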

How the data were processed

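The authors used fastp for trimming, Bowtie2 and BLAST to discard rRNA and small RNA, kept RFs by length, aligned them to the yak genome BosGru 3.0 with STAR and quantified genes with RSEM. The expected counts were deposited by the authors as whole numbers without normalization, and the deposited FPKM divides them by gene length and library total. Columns of the authors' own fold changes, p-values and FDR and tables of group means were not used. Libraries present in several tables were identical. Library totals ranged from 16304058 to 52616039 counts. Replicates are separate animals.

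The 7 members and all lists were chosen with earlier results of these data known. Besides the members, the text names the lowest and highest DTG of each list, other list DTGs in cattle–yak over yak of 4 years, the 2 markers with the highest mean FPKM, and the 3 genes most like each member; the neighbors *KIT*, *CSF1R*, *GSX2* and *CDX1* were named after their values were seen, and 1 gene that this rule names is not reported here. For 14 genes without a symbol the deposited description was used, chosen after seeing the data.

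Pairs of groups were tested on 6 libraries with edgeR 4.0.16 (filterByExpr, TMM, quasi-likelihood test, Benjamini-Hochberg over all tested genes; R 4.3.3), tested on simulated data. The standard error is the log2 fold change over the square root of F. Alternatives were other scalings, no filter, DESeq2 1.42.0, all 12 libraries, limma 3.58.1 on log2(FPKM + 1) or log2(FPKM + 0.1), a block for the replicate number, and leaving out single libraries. Figures used matplotlib 3.10.9. No sequence or position is given, since no genome of this build was used here.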

Additional observations from a re-analysis of the deposited data

How the results depend on the processing

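Of 630 recomputed log2 fold changes of PDGF genes, 557 kept direction and call, 42 gained the call, 24 lost it and 7 changed sign. No sign change was of a DTG. *PDGFB* in cattle–yak over yak of 4 years, reported as -0.01, was 0.0578 with upper quartile scaling, 0.0206 with no filter and 0.0116 with all 12 libraries, and ranged from -0.262 to 0.310 when a library was left out, with 0.310 without replicate 2 of yak at 4 years, 0.126 without replicate 1 and 0.0995 without replicate 3 of cattle–yak. *PDGFC* in cattle–yak over yak of 18 months, reported as -0.70, ranged from -1.02 to 0.255 when a library was left out, with 0.255 without replicate 1 of yak at 18 months.

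The 2 DTGs in cattle–yak over yak of 4 years, both higher, became 1 with all 12 libraries and 1 with limma on log2(FPKM + 1). With RLE scaling, DESeq2, limma on log2(FPKM + 0.1) and the replicate block there were 1 higher and 1 lower, since *PDGFRB* was lost and *PDGFRL* gained. Leaving out a library gave 1 to 3, with 1 without replicate 1 of yak at 4 years. Without replicate 2 of cattle–yak neither *PDGFRA* nor *PDGFRB* was a DTG, and the 1 DTG was *PDGFRL*, which was lower. The 0 DTGs of yak at 18 months over 6 months became 2 with DESeq2, 2 with all 12 libraries (4.9% of all genes lower), 1 with limma on log2(FPKM + 0.1) and 0 to 4 when a library was left out. The 0 of yak at 4 years over 18 months became 4 with DESeq2, 6 with all 12 libraries (10.2% and 14% of all genes lower, against 0.0371% as reported) and 0 to 6 when a library was left out. The 7 of cattle–yak over yak of 6 months became 4 with library size alone and 4 with limma with either pseudocount (12% and 8.71 to 12.1% of all genes lower, against 19.7%), and 6 to 7 when a library was left out. The 0 of cattle–yak over yak of 18 months became 2 with DESeq2, 2 with all 12 libraries (10.1% of all genes lower) and 0 to 3 when a library was left out. The 7 of yak at 4 years over 6 months were 6 to 7 under every setting and 7 with each library left out. Apart from the libraries left out, the causes were not tested.

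No sign was seen that the replicate numbers pair the samples. Deviations from the group means of same-numbered libraries correlated at -0.34 to 0.12, with 1 of 18 pairs above 0.1. Libraries with different numbers gave -0.22 to 0.34. With 3 libraries per group the deviations depend on each other, so this check cannot exclude a pairing. With the replicate block, yak of 18 months over 6 months had 3 DTGs, all lower, beside 2.04% of all genes lower. Cattle–yak over yak of 4 years kept 2, which were *PDGFRA* (1.11) and *PDGFRL* (-1.02), with *PDGFRB* at 0.91. The block gave 7 DTGs in both comparisons with yak of 6 months that end at 4 years and 0 in the other 2. By Spearman's rho in place of Pearson's r, the 3 genes most like a member shared 2 with those named for *PDGFA* and 2 for *PDGFB*, 1 for *PDGFRB* and 0 for the other 4 members.

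With library size alone the share of lower genes among all DTGs of yak at 18 months over 6 months was 32.0%, against 70% of 10 DTGs with TMM. Depth limits *PDGFB* most, with 26 to 46 counts in yak of 4 years.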
